A study of Mus musculus with 11 samples.

Results

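The cathepsins and legumain are the proteases of lysosomes and of the related compartments where proteins are broken down or cut into active forms. The 10 genes described here are Ctsa, Ctsb, Ctsc, Ctsd, Ctsh, Ctsk, Ctsl, Ctss, Ctsz and Lgmn, which encodes legumain. They were chosen by name, with earlier results of these data known. They are 10 of the 12393 genes that the arrays read with at least 1 probe set assigned to a single gene, and every such probe set of a member, 15 in all, was used. Sympathetic ganglia, clusters of noradrenergic nerve cells outside the spinal cord, were taken by laser capture from male C57BL mice aged 78 weeks and kept on normal chow. Of the 11 arrays, 6 came from apoE-/- mice, called Apoe-deficient here, in which both copies of the gene for the lipid carrier apolipoprotein E are disrupted, and 5 from wild-type mice. Mice without apolipoprotein E develop atherosclerosis, and the series title concerns exchange between the diseased aorta and peripheral nerves. The labels do not say how the captured areas were chosen, nor whether each array stands for 1 animal. If arrays shared an animal, the p-values below would be too small, and otherwise they set the groups against a spread between samples that may in part be technical.

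Most cathepsins are cysteine proteases that are made as inactive precursors, carried to lysosomes by mannose 6-phosphate receptors and activated there by acid pH. Cathepsin D is an aspartic protease and cathepsin A a serine carboxypeptidase, while legumain cuts after asparagine and helps to mature several of the others. Some members work in nearly every cell, whereas cathepsin S is best known from cells that present antigen, cathepsin C from cells that store serine proteases in granules, and cathepsin K from osteoclasts.

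The labels and the tissue were checked first. Apoe had a deposited signal of 143 ± 84.6 (SD, n = 6) in Apoe-deficient ganglia, against 15155 ± 3020 (SD, n = 5) in wild-type ones, with a log2 difference of -6.75 (SE 0.44, limma adjusted p = 1.88e-06) and an exact two-sided permutation p of 0.0022, the smallest that 462 regroupings can give. The noradrenaline synthesis genes Th and Dbh, which define sympathetic nerve cells, had signals of at least 9686.1 and 7993 in every Apoe-deficient array and of at least 12518.2 and 12541.9 in every wild-type array. Rank correlations between arrays ran from 0.94 to 0.98, and 0 pairs of arrays held identical values. The spiked hybridisation controls, which report on staining and hybridisation and not on the tissue, fell into 3 levels. Apoe-deficient replicates 2, 3 and 4 formed the low level, which held 0 wild-type arrays. The middle level held Apoe-deficient replicate 5 together with wild-type replicates 3, 4 and 5, and the high level held Apoe-deficient replicates 1 and 6 together with wild-type replicates 1 and 2. Values with and without this level are given beside the results it changes.

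Promoter windows of the members were searched for short motifs, and 4 windows, picked by member and motif, are shown. Capitals mark matches to the ETS letters in Ctss and Ctsc and to CACGTG or its longer form in Ctsa and Ctsd, and other motifs stand in lower case. Each one runs 5′ to 3′ from 250 bases before to 50 bases after an annotated start and is taken from RefSeq on GRCm38.p6. Windows were on hand for 8 of the 10 members, all but Ctsb and Ctsh. Ctss (chr3:95526536-95526835, plus strand) and Ctsc (chr7:88277835-88278134, plus strand), which were higher in Apoe-deficient ganglia, both hold the ETS family letters GAGGAAGT on the opposite strand. Ctsa (chr2:164833523-164833822, plus strand) and Ctsd (chr7:142387778-142388077, minus strand), which did not pass the test, both hold TCACGTGA, the core of the element through which TFEB family factors act on lysosomal genes.
Ctss: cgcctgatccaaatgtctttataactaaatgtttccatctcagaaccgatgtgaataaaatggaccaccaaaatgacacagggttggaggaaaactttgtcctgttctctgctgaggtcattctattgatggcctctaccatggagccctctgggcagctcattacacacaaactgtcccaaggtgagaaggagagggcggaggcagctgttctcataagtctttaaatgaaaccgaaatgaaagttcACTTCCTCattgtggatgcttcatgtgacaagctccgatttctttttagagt
Ctsc: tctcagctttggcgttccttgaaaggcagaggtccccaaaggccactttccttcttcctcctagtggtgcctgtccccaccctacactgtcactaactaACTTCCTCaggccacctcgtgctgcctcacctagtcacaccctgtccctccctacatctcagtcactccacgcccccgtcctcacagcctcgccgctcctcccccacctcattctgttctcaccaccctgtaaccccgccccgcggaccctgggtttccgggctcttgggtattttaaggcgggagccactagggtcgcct
Ctsa: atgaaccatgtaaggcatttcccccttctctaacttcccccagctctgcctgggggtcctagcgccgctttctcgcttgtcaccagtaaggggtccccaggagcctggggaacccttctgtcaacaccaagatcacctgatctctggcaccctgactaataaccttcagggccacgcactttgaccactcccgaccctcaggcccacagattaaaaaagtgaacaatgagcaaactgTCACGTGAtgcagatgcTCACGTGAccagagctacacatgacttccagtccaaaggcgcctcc
Ctsd: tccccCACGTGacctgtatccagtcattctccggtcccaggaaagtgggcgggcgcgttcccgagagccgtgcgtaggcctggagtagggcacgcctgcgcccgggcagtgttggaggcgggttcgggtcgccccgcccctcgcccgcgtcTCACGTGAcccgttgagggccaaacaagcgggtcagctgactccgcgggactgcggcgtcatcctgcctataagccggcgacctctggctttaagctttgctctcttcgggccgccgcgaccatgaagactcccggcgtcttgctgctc
In Ctss the match to GAGGAAGT begins 2 bases before the start, and in Ctsc 151 bases before it. These letters occur on either strand in 3.2% of the 32851 windows of all genes. Ctsa had 2 windows, and the one shown holds TCACGTGA at 13 bases before and at 4 bases after its start. The other Ctsa window, not shown, holds neither TCACGTGA nor CACGTG. Ctsd holds TCACGTGA 99 bases before the start and the shorter CACGTG 245 bases before it. TCACGTGA occurs in 0.974% of all windows. The 9 motifs searched were picked with the expression results known, on both strands, and a match describes letters only. The windows shown were picked for holding these letters, so the contrast between called members and others in them comes from that choice. Ctsk, Ctsl, Ctsz and Lgmn, which did not pass the test either, hold neither GAGGAAGT nor TCACGTGA in their windows.

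Of the other 7 motifs, CACGTG, which lies within TCACGTGA, was found in windows of 4 members, Ctsa, Ctsd, Ctsl and Lgmn, and in 7.15% of all windows. The interferon response factor letters GAANNGAAA were found in Ctss alone among the members, 15 bases before the start, and in 7.52% of all windows. AGGAAG, the shorter ETS form, which lies within GAGGAAGT, was found in Ctsc, Ctsk and Ctss and in 35.4% of all windows. The AP-1 letters TGAGTCA (5.2% of all windows) and their open form TGANTCA (7.81%), which contains them, were in 0 member windows. The GC box CCGCCC was in windows of 5 members and 35.7% of all windows, and TATAAA in windows of 2 members and 13.6% of all windows.

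Ctsc, Ctsh and Ctss were higher in Apoe-deficient ganglia, each by a little over 2-fold, and the other 7 members did not pass the test. All 10 genes and all 15 probe sets lay above the filter on low signals in all 11 arrays, so no member was lost to it. By limma with Benjamini-Hochberg adjustment over the 8433 genes tested, 3 of 10 members were higher and 0 lower, where 1.26% of all genes tested were higher and 0.676% lower. The same 3 members had every Apoe-deficient array above every wild-type array, as did 1.46% of all genes tested. Because the members were chosen with earlier results of these data known, both shares of the members are descriptions only. The median log2 difference of the 10 members was 0.12, beside -0.04 over all genes tested, and 5 of the 10 were positive. In captured tissue that mixes cell types, more cells of a type, more RNA per cell and a different captured area cannot be told apart.

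Ctsc encodes cathepsin C, or dipeptidyl peptidase I, an exopeptidase that activates serine proteases in mast cell, neutrophil and cytotoxic lymphocyte granules. Its signal in Apoe-deficient ganglia was 802 at the lowest, 1277.65 at the median and 2100.8 at the highest. The 5 wild-type arrays read 468, 337.7, 551.7, 639.2 and 611.5. The groups did not overlap, and Apoe-deficient replicate 4 stood highest. The means were 1293 ± 451 (SD, n = 6) in Apoe-deficient ganglia, against 522 ± 122 (SD, n = 5) in wild-type ones. The difference was 1.24 on the log2 scale (SE 0.21, limma adjusted p = 0.00834), a 2.36-fold increase with a 95% interval of 1.72 to 3.23.

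Ctsh encodes cathepsin H, an aminopeptidase of lysosomes that also takes part in the processing of surfactant protein in lung. Its signal in Apoe-deficient ganglia was 446.8 at the lowest, 537.25 at the median and 687.8 at the highest. The wild-type arrays read 188.6, 202.3, 208.8, 261.3 and 297.6. The gap between the lowest Apoe-deficient and the highest wild-type array was wider than the SD of either group. The means were 543 ± 83.0 (SD, n = 6) in Apoe-deficient ganglia, against 232 ± 46.0 (SD, n = 5) in wild-type ones, and the difference was 1.18 on the log2 scale (SE 0.14, limma adjusted p = 0.000694). That is a 2.26-fold increase with a 95% interval of 1.83 to 2.80, and it ranked 9 by p among the 8433 genes.

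Ctss encodes cathepsin S, an endopeptidase that trims the invariant chain from class II molecules and that keeps its activity at neutral pH. Its signal in Apoe-deficient ganglia was 996.5 at the lowest, 1686.2 at the median and 2325.8 at the highest. The wild-type arrays read 930.9, 614.4, 482.2, 773.9 and 916.6. The groups did not overlap, but Apoe-deficient replicate 1 lay only just above wild-type replicate 1. The means were 1752 ± 464 (SD, n = 6) in Apoe-deficient ganglia, against 744 ± 194 (SD, n = 5) in wild-type ones. The difference was 1.20 on the log2 scale (SE 0.21, limma adjusted p = 0.00834), a 2.29-fold increase with a 95% interval of 1.69 to 3.10.

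**Figure D1:**
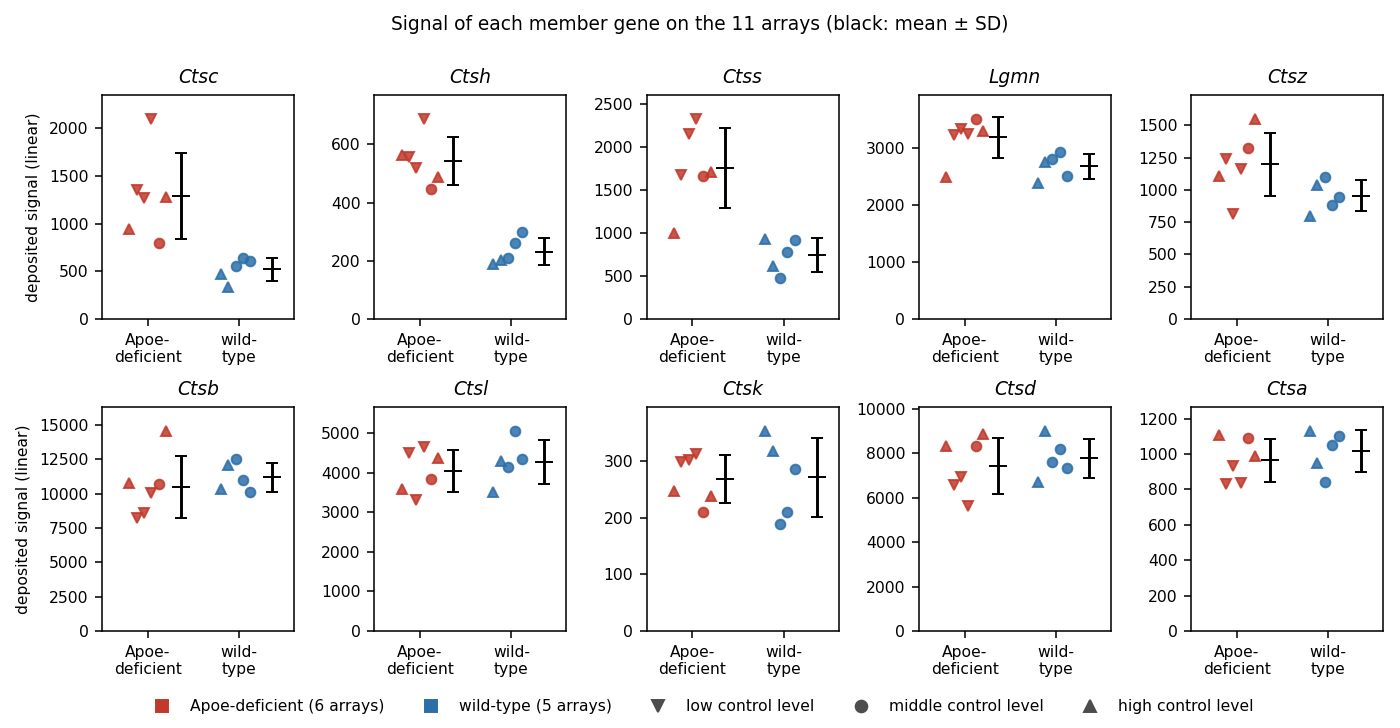
Deposited linear signal of the 10 members on each array, with Apoe-deficient arrays on the left and wild-type arrays on the right of each panel. Each axis starts at 0 and has its own scale, since signals of different probe sets are not on 1 scale, black marks give the mean ± SD, and marker shapes give the hybridisation control level. In the panels of Ctsc, Ctsh and Ctss all 6 Apoe-deficient points lie above all 5 wild-type points, and in the other 7 panels the groups overlap.

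The 3 increases held their call in 11 of 11 fits that each left out 1 array, with differences of 1.09 to 1.36 for Ctsc, 1.11 to 1.26 for Ctsh and 1.05 to 1.33 for Ctss. When the level of the hybridisation controls entered the fit as a block, Ctsh kept its call at 1.11 (limma adjusted p = 0.0172), whereas Ctsc at 1.01 (adjusted p = 0.117) and Ctss at 0.99 (adjusted p = 0.143) did not pass. Without the 3 arrays of the low level the values were 1.06 (adjusted p = 0.0287) for Ctsh, 0.95 (adjusted p = 0.152) for Ctsc and 0.97 (adjusted p = 0.186) for Ctss. The same settings called 45 and 24 of all genes, against 163 with all arrays and no block. Within the high level, 2 Apoe-deficient and 2 wild-type arrays differed by 1.47 for Ctsc, 1.38 for Ctsh and 0.79 for Ctss. Within the middle level, the single Apoe-deficient array differed from the mean of 3 wild-type arrays by 0.41 for Ctsc, 0.76 for Ctsh and 1.24 for Ctss. As every Apoe-deficient array lay above every wild-type array for these 3 genes, the positive signs of these 6 differences were fixed beforehand. The low level held no wild-type array to set against its own.

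Lgmn and Ctsz had positive differences that did not pass the test. Lgmn, whose product is the asparaginyl endopeptidase, read 2481.7 at the lowest, 3265.5 at the median and 3503.4 at the highest in Apoe-deficient ganglia. The wild-type arrays read 2388.3, 2744.6, 2793.1, 2920.2 and 2508.1. Of the 6 Apoe-deficient arrays, 5 lay above every wild-type array and replicate 1 lay among them. The log2 difference was 0.25 (SE 0.10, 95% interval 0.03 to 0.46), with an unadjusted limma p of 0.0266 and an adjusted p of 0.194. That unadjusted p ranked 1155 among the 8433 genes tested, so such values were common over all genes. Without Apoe-deficient replicate 1 the difference was 0.31 with an adjusted p of 0.0496, which passes.

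Ctsz encodes cathepsin Z, also called cathepsin X, a carboxypeptidase abundant in macrophages and microglia. Its probe set of highest mean read 810.8 to 1550.7, with a median of 1203, in Apoe-deficient ganglia and 801.9 to 1104.1 in wild-type ganglia, and the groups overlapped. The log2 difference was 0.28 (SE 0.15, 95% interval -0.04 to 0.61, limma adjusted p = 0.304). The other 2 probe sets gave 0.33 and 0.29, and their array names mark them as able to match related transcripts. All 3 pointed the same way, and the unadjusted p of the 0.33 was 0.0265. With the level block the Ctsz difference was 0.48 (95% interval 0.11 to 0.85, adjusted p = 0.296), and Apoe-deficient replicate 3 of the low level held its lowest Apoe-deficient value.

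**Figure D2:**
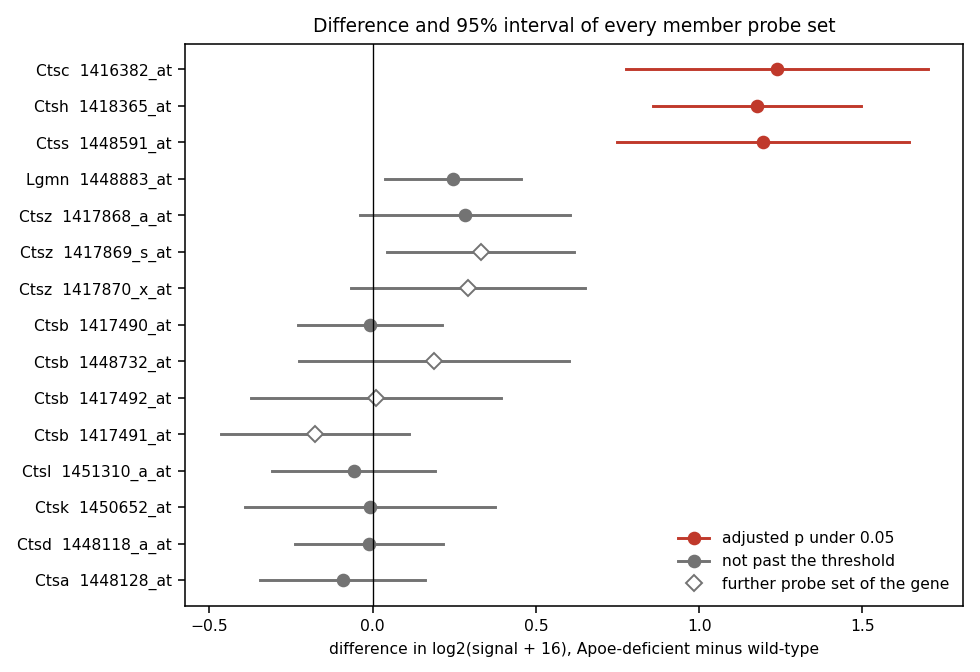
Difference in log2(signal + 16), Apoe-deficient minus wild-type, with its 95% interval for each of the 15 member probe sets, from the limma fit over all 22626 probe sets without a filter. Red marks the 3 probe sets past the threshold, those of Ctsc, Ctsh and Ctss, and open diamonds mark further probe sets of Ctsb and Ctsz. The intervals of Ctsa, Ctsb, Ctsd, Ctsk and Ctsl all include 0.

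The remaining 5 members, most of them broadly expressed, had differences near 0. Ctsb, the lysosomal endopeptidase and dipeptidyl carboxypeptidase, read 8246.1 to 14587.9 with a median of 10368.45 in Apoe-deficient ganglia and 10125.1 to 12522.2 in wild-type ganglia. The log2 difference was -0.01 (SE 0.09, 95% interval -0.21 to 0.19, limma adjusted p = 0.969). The other 3 probe sets of Ctsb gave 0.19, 0.01 and -0.18, so they disagreed in sign, and 0 of them passed. Ctsl, the lysosomal endopeptidase cathepsin L, read 3318.7 to 4653.2 in Apoe-deficient ganglia and 3511.7 to 5062.9 in wild-type ganglia, a difference of -0.06 (95% interval -0.30 to 0.19). As folds, the intervals ran from 0.864 to 1.14 for Ctsb and from 0.811 to 1.14 for Ctsl, below the lower bounds of 1.72, 1.83 and 1.69 for Ctsc, Ctsh and Ctss.

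Ctsd encodes cathepsin D, the aspartic protease whose loss causes a neuronal storage disease. It read 5610.7 to 8861.6 with a median of 7617.7 in Apoe-deficient ganglia and 6681.9 to 9010.2 in wild-type ganglia, a difference of -0.01 (95% interval -0.22 to 0.20, limma adjusted p = 0.959). Ctsa encodes cathepsin A, the serine carboxypeptidase that shields neuraminidase and beta-galactosidase from breakdown. It read 830.9 to 1109.3 in Apoe-deficient ganglia and 844.2 to 1131.3 in wild-type ganglia, a difference of -0.09 (95% interval -0.35 to 0.17). The groups overlapped for both genes, and the 3 low-level arrays held the 3 lowest Ctsa values among the Apoe-deficient arrays. With the level block Ctsa stood at 0.07 and Ctsd at 0.11, with the sign turned and the threshold not passed.

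Ctsk encodes cathepsin K, the collagenase of osteoclasts. Its signal was 210.2 at the lowest, 274.1 at the median and 312.7 at the highest in Apoe-deficient ganglia, and the wild-type arrays read 354.3, 318, 189.8, 210.8 and 287.4. The difference was -0.01 (95% interval -0.37 to 0.36, limma adjusted p = 0.985), and its sign turned with the scaling, to 0.01 with the deposited values and to 0.02 with median centring. With the level block it was -0.33 (95% interval -0.66 to 0.00037, adjusted p = 0.437), and the 3 low-level arrays held the 3 highest Apoe-deficient values. The osteoclast markers tested, 3 of 7 listed, gave 0 calls by limma (1 at an unadjusted p under 0.05), with Mmp9 at 0.71 (adjusted p = 0.194), Nfatc1 at 0.23 (adjusted p = 0.522) and Acp5 at -0.19 (adjusted p = 0.765). The osteoclast marker Calcr lay below the filter and stood at -0.73 (limma adjusted p = 0.288) in the fit without it. Ctsk and Ctss are neighbouring protein-coding genes on chromosome 3, and their differences were -0.01 and 1.20. Ctsc and Ctsd lie on chromosome 7, as does Apoe, and their differences were 1.24 and -0.01.

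The members did not vary together as 1 block within the groups. After group means were removed, Pearson correlations over the 11 arrays were highest for Ctsb with Lgmn (0.76) and for Ctsc with Ctsh (0.71). Ctss correlated with Ctsc at 0.47 and with Ctsh at 0.23. The lowest were Ctsa with Ctsb (-0.58), Ctsd with Ctsk (-0.58), Ctsk with Ctsz (-0.56) and Ctsc with Ctsd (-0.56). Values of an array share its control level, RNA preparation and captured mix of cells, so these correlations are descriptions.

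**Figure D3:**
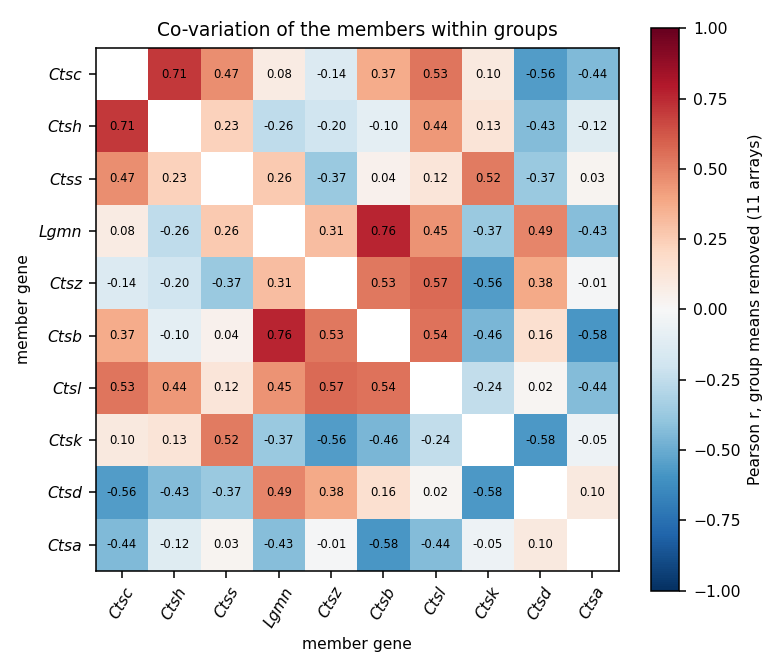
Pearson correlation of each pair of members over the 11 arrays, on log2 values with each group's mean removed, as a grid with the members on both axes. Red squares are positive and blue squares negative. Ctsc with Ctsh and Ctsb with Lgmn are the strongest positive pairs, at 0.71 and 0.76.

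Genes that followed the called members most closely were found among all genes tested, by Pearson correlation over all 11 arrays, which includes the group difference. The highest of so many correlations are large by selection, and the values with group means removed come from the same arrays. Ctsc was followed by Jtb (0.99), the macrophage mannose receptor gene Mrc1 (0.97) and the membrane fusion gene Snap23 (0.97). With group means removed these were 0.96, 0.93 and 0.90. Ctsh was followed by Tmem123 (0.95), the complement gene C1qc (0.94) and Tram1 (0.94), which stood at 0.64, 0.50 and 0.45 with group means removed. Ctss was followed by Ly86 (0.96), the perforin-like macrophage gene Mpeg1 (0.96) and Lyz1 (0.95), a lysozyme gene nearly identical to Lyz2, with 0.86, 0.88 and 0.78 after the means were removed.

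Macrophage markers were higher as well. Of 22 listed markers 18 were tested and 10 were higher, 0 lower, with a median log2 difference of 0.77. Their summed signal was 12424.8 to 17339.3 in Apoe-deficient ganglia and 7586 to 9398.9 in wild-type ganglia, without overlap. C1qc (1.43), C1qa (1.03) and Lyz2 (1.19), which macrophages transcribe, rose, as did the leukocyte gene Ptprc (limma adjusted p = 0.0141). The F4/80 gene Adgre1 (0.07) and Cd14 (0.02) did not pass. The 4 markers below the filter had mean signals, in Apoe-deficient against wild-type ganglia, of 33.4 against 13.0 for Itgam, 87.7 against 77.6 for Cx3cr1, 55.0 against 55.8 for Trem2 and 86.0 against 74.5 for Msr1, and 0 of the 22 were listed at 0. The 10 calls became 6 when Apoe-deficient replicate 3 was left out, 6 when wild-type replicate 2 was, and 6 when wild-type replicate 3 was. They became 4 with the level block and 4 without the low level.

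Across arrays with group means removed, the mean log2 value of the tested macrophage markers correlated with Ctsc at 0.73, with Ctsh at 0.57, with Ctsk at 0.43 and with Ctss at 0.41. Ctsd stood at -0.80, Lgmn at -0.42 and Ctsz at -0.30, and Ctsa, Ctsb and Ctsl between -0.06 and 0.12. These values share the 11 arrays and their control levels, and 0 of the members are on the marker list. The part of macrophage content in the 3 increases was not tested.

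Other cell types were read in the same way. Mast cell markers were higher in 4 of 7 tested, with a summed signal of 1885.6 to 5362.1 in Apoe-deficient ganglia and 740 to 1939.4 in wild-type ganglia. Among these 4, Tpsb2 passed the filter on low signals through the Apoe-deficient arrays alone. Of the B, plasma and dendritic cell markers 2 of 7 were higher, the antibody genes Jchain (4.33) and Ighm (3.76), with summed signals of 12427 to 65816.4 in Apoe-deficient and 1099.9 to 17195.9 in wild-type ganglia. Fibroblast markers gave 1 call of 9, Postn (1.10), with summed signals of 12217.2 to 18528.1 in Apoe-deficient and 9347.5 to 13568.7 in wild-type ganglia. The mast cell calls became 1 when Apoe-deficient replicate 3 was left out and 2 when Apoe-deficient replicate 4 was, and 2 when wild-type replicate 5 was. The fibroblast calls became 3 when Apoe-deficient replicate 5 was left out and 2 when replicate 6 was. With the level block the mast cell and fibroblast lists held 0 calls and the B, plasma and dendritic cell list 1, and without the low level all of these held 0. The 11 neuron markers (median -0.02), 9 glia markers (-0.21), 6 adipocyte markers (-0.80) and 6 endothelial markers (0.24) gave 0 calls by limma, with summed signals that overlapped. At an unadjusted p under 0.05 they gave 4, 2, 2 and 3. Such values were common over all genes, where the unadjusted limma p of 0.0266 for Lgmn ranked 1155 of 8433. Array weights gave 2 neuron and 2 adipocyte calls. Without Apoe-deficient replicate 5 there was 1 neuron and 1 endothelial call, without Apoe-deficient replicate 6 there were 2 adipocyte calls, and without wild-type replicate 4 there was 1 neuron and 1 adipocyte call. The closest to a call among them were Gata2 (-0.46, limma adjusted p = 0.0602) and Gata3 (0.39, 0.122) for neurons, Ttyh1 (-0.33) and Ednrb (-0.37) for glia, Cox8b (-1.66, adjusted p = 0.0622) and Cidea (-1.23) for adipocytes, and Pecam1 (0.50) and Kdr (-0.34) for endothelium. The part of the captured mix of cells in the results of the members was not tested.

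Part of the class II antigen presentation route, in which cathepsin S acts, was higher. Class II molecules bind peptides in a compartment where cathepsin S, among other proteases, cuts the invariant chain that Cd74 encodes. Of 11 listed genes 7 were tested, 4 were higher and 0 lower, with a median of 0.71. Cd74 read 2044.6 to 5462.8 in Apoe-deficient ganglia and 963.9 to 1328 in wild-type ganglia, a difference of 1.38 (SE 0.22, limma adjusted p = 0.00581). H2-Eb1 (1.03, adjusted p = 0.00225), H2-Aa (0.82, adjusted p = 0.000873) and H2-Ab1 (0.71, adjusted p = 0.0418) rose as well, and H2-DMa (0.28), which encodes the peptide exchange factor, did not pass. Cd74, H2-Aa and H2-Eb1 kept their calls in 11 of 11 fits without 1 array, and H2-Ab1 kept its call in 2 of 11, those without Apoe-deficient replicate 3 or 6, with differences of 0.60 to 0.82 over the 11. Blocking on the control level kept 4 calls, and leaving out the low level 3, since H2-Eb1 missed the threshold (1.04, adjusted p = 0.0611).

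Granule serine proteases, among them those that cathepsin C activates, were read next. Of 15 listed genes 5 were tested, and 3 were higher, the mast cell chymase genes Cma1 (1.48, SE 0.30) and Mcpt4 (2.47, SE 0.52) and the tryptase gene Tpsb2 (2.03, SE 0.36). Tpsb2 read 107.3 to 260.9 in Apoe-deficient ganglia and 6.7 to 72.3 in wild-type ganglia. It passed the filter through the Apoe-deficient arrays alone, so its call is not independent of the filter. The Tpsb2 call was lost without any 1 of Apoe-deficient replicates 1, 2, 3, 4 and 6. Without the low level Tpsb2 was not tested. Cma1 read 573 to 1691.6 in Apoe-deficient ganglia and 153.7 to 559.4 in wild-type ganglia. The granzyme gene Gzmk (0.43, limma adjusted p = 0.244) and Tpsab1 (0.15) did not pass. The cathepsin G gene Ctsg, itself a granule protease, lay below the filter with a signal of 10.1 ± 4.5 (SD, n = 6) in Apoe-deficient ganglia, against 8.8 ± 4.7 (SD, n = 5) in wild-type ones. Leaving out Apoe-deficient replicate 3 ended all 3 calls, and leaving out Apoe-deficient replicate 4, and likewise wild-type replicate 5, kept 1. Blocking on the control level kept 0, and Cma1 stood at 1.59 (adjusted p = 0.143). Cma1, Mcpt4 and Tpsb2 are also mast cell markers, and mast cell protease genes are close copies of each other, so their probe sets may share signal.

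Protein inhibitors of the cathepsins gave 0 calls by limma of 5 tested among 21 listed, and 0 at an unadjusted p under 0.05, with a median of 0.03. Cstb, which encodes the cytosolic inhibitor cystatin B, read 4115.5 to 5288.1 in Apoe-deficient ganglia and 3907.4 to 4672.4 in wild-type ganglia, a difference of 0.17 (SE 0.08, limma adjusted p = 0.269). Ctla2b, a close copy of Ctla2a whose probe set may share its signal, stood at 0.25 (adjusted p = 0.342), and the secreted inhibitor gene Cst3, encoding cystatin C, at 0.03. Serpinb1a, an inhibitor of granule serine proteases chosen after its values were seen, lay below the filter. It read 71.7 to 190 in Apoe-deficient ganglia and 5.7 to 43.3 in wild-type ganglia, and the fit without a filter gave 2.22 (SE 0.34, limma adjusted p = 0.00783). It is not counted with the 5 tested genes.

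Sorting and acidification, the steps that bring cathepsins to lysosomes and activate them, showed 1 lower gene each. Of the 14 sorting genes tested, Ap1m1, a subunit of the adaptor that packs enzymes into clathrin carriers, read 959.9 to 1495.3 in Apoe-deficient ganglia and 1617.8 to 1787.7 in wild-type ganglia. It fell by 0.54 on the log2 scale (SE 0.11, limma adjusted p = 0.0254). M6pr, the small mannose 6-phosphate receptor gene, read 1804.4 to 2363.7 in Apoe-deficient ganglia and 1507.3 to 1761.6 in wild-type ganglia, yet 0.22 did not pass (adjusted p = 0.201). Of the 18 vacuolar proton pump subunits, Atp6v1e1 fell by 0.25 (SE 0.06, adjusted p = 0.0458), and the rest did not pass.

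The calls of both decreases moved with single arrays, while the differences kept much of their size. For both genes every Apoe-deficient log2 value lay below every wild-type one, so leaving out arrays could hardly give another direction. Ap1m1 lost its call when any 1 of Apoe-deficient replicates 2 and 3, or any 1 of wild-type replicates 1, 2, 3 and 5, was left out. Over all fits without 1 array it ran from -0.62 to -0.48, and with the level block it was -0.38 (adjusted p = 0.248). Atp6v1e1 kept its call in 1 of the 11 fits without 1 array, that without Apoe-deficient replicate 1, with differences of -0.27 to -0.23 over the 11. With the level block it was -0.26 (adjusted p = 0.167), and it was not called with the deposited values or with median centring.

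Partners, matrix substrates and regulators gave 0 calls by limma, and 0, 1 and 2 at an unadjusted p under 0.05. Values that small were common over all genes, where the unadjusted limma p of 0.0266 for Lgmn ranked 1155 of 8433. Among 5 partner and lysosomal substrate genes, App (-0.20, limma adjusted p = 0.277) and Psap (-0.19, adjusted p = 0.538) had the smallest p, and the cathepsin A partners Neu1 (0.05) and Glb1 (0.14) lay near 0. Among 12 matrix genes that secreted cathepsins can cut, Col3a1 stood at 0.79 (adjusted p = 0.0747) and Fn1 at 0.42 (adjusted p = 0.250), with a list median of 0.16. Array weights, and likewise leaving out Apoe-deficient replicate 5, gave 1 matrix call. Col3a1 read 815.2 to 2013.3 in Apoe-deficient ganglia and 577.8 to 1039.9 in wild-type ganglia, and the groups overlapped. Among 6 regulator genes, Mitf, a relative of TFEB, stood at 0.40 (adjusted p = 0.163) and the interferon response factor gene Irf8 at 0.54 (adjusted p = 0.170), while Spi1, which encodes the ETS factor PU.1, stood at -0.01. Of 13 further cathepsin genes 2 were tested, and Ctsf (0.31, adjusted p = 0.201) and Ctse (0.12, adjusted p = 0.695) did not pass.

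**Figure D4:**
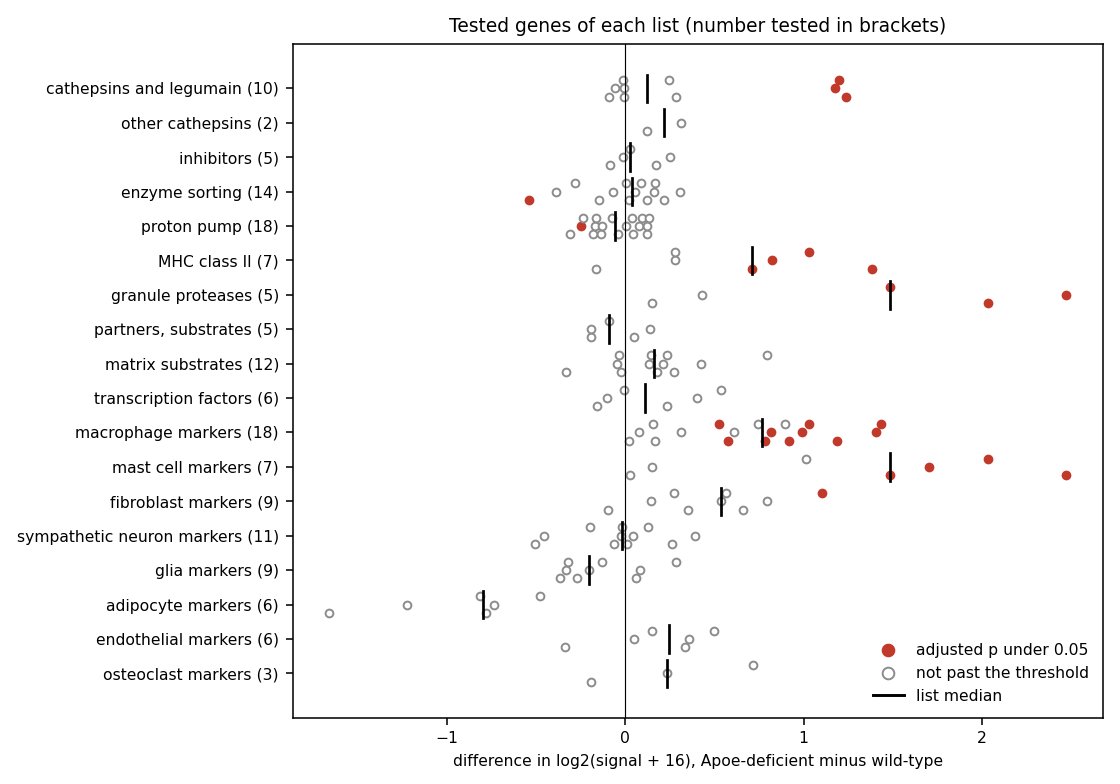
Difference in log2(signal + 16), Apoe-deficient minus wild-type, for every tested gene of the members and of the lists named in the text, with the number tested in brackets. The list of B, plasma and dendritic cell markers is not drawn. Filled red points passed the threshold, open points did not, and black ticks give list medians. The largest medians are those of the mast cell (1.48), granule protease (1.48), macrophage (0.77) and class II (0.71) lists, beside -0.04 over all genes tested.

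Over 24 alternative settings the signs of Ctsc, Ctsh, Ctss, Ctsz and Lgmn were positive throughout. For Ctsc, Ctsh and Ctss, whose groups did not overlap, leaving out arrays could hardly give another sign. Ctsh passed in all 24, and Ctsc and Ctss in 22. Ctsa, Ctsb, Ctsd, Ctsk and Ctsl changed sign in at least 1 setting and passed in 0.

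**Figure D5:**
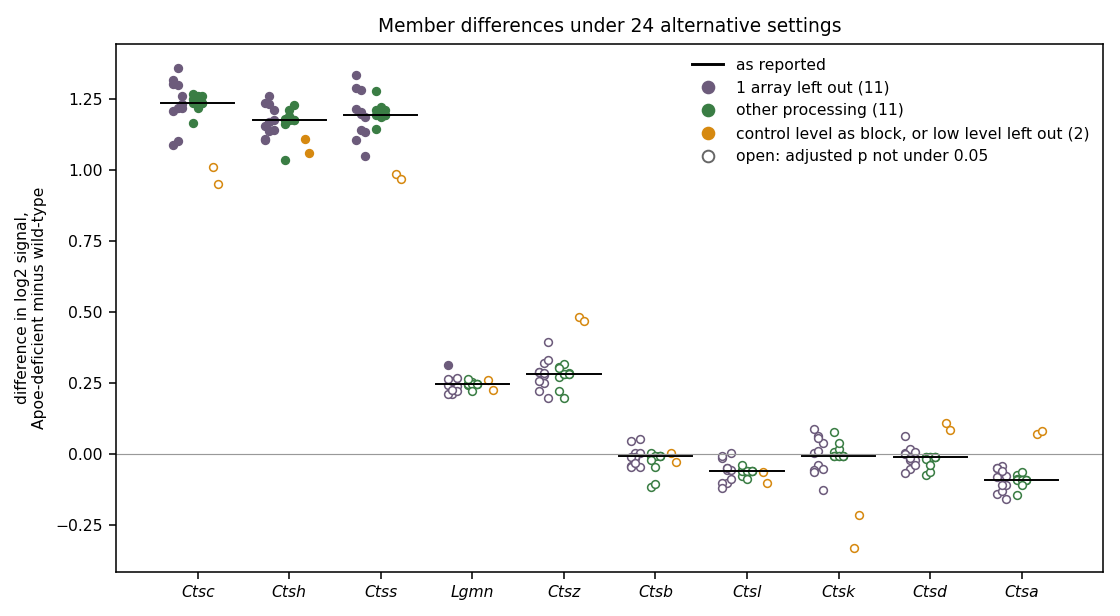
Difference in log2 signal, Apoe-deficient minus wild-type, of each member as reported (black bar) and under 24 alternative settings (points), filled where the adjusted p was under 0.05. Purple points leave out 1 array, green points change the processing, and orange points block on the control level or leave out the low level. For Ctsc and Ctss the 2 orange points are open, at 1.01 and 0.95 and at 0.99 and 0.97, while those of Ctsh are filled.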

How the data were processed

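Total RNA from laser-captured ganglia was hybridised to 1-colour Affymetrix arrays, per the labels. The authors deposited linear intensity values, 1 per probe set, from GCOS 1.4, per the submitters' processing notes. How GCOS computed them, and detection calls, were not given in the sources used here. All arrays had a trimmed mean near 500.2, so the deposited intensities had been scaled, and medians were 163 to 188.6. Precision is limited by the array number.

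The 64 control probe sets were left out, and log2(signal + 16) was quantile normalised over 22626 probe sets. A probe set was kept above the 40th percentile in at least 5 arrays, the single-gene probe set of highest mean stood for its gene, and limma 3.58.1 (R 4.3.3) tested 8433 genes (intensity trend, two-sided, Benjamini-Hochberg, threshold 0.05). Differences are on the log2(signal + 16) scale, which understates those of low genes. The procedure was tested on simulated data. The member probe sets were also fitted without the filter, which called 3 of 15, those of Ctsc, Ctsh and Ctss, among 166 of 22626. Promoter windows came from RefSeq on GRCm38.p6. A separate RefSeq gene annotation, in which 10 of 10 member identifiers were found, named chromosomes and neighbours. Figures used matplotlib 3.10.9.

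The members and the 18 other lists were chosen with earlier results of these data known. Genes were named by rule: all members, Apoe, of each list up to 4 genes of smallest p among those past the threshold or else the 2 of smallest p, and the 3 genes most correlated with each called member. Adgre1, Cd14, H2-DMa, Gzmk, Tpsab1, Ctsg, Cst3, Serpinb1a, M6pr, Acp5, Calcr, Neu1, Glb1, Spi1, Th, Dbh and the macrophage markers below the filter were named after their values were seen. Alternatives covered the step between arrays, pseudocount, filter, probe set rule, variance model, weighting of arrays, single arrays left out, the replicate number as a block, and the control level, whose 3 levels were separated at the widest gaps of the hybridisation control signal.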

Additional observations from a re-analysis of the deposited data

Results flagged for a closer look

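Among 32 groups of arrays examined for a single distant value, over the 15 member probe sets and Apoe, 3 had one, and chance marks about 1 in 20. One Ctsb probe set, not that of highest mean, read a log2 value of 12.07 (signal 4515.9) in Apoe-deficient replicate 1, below 12.76 to 13.07 in the other 5 Apoe-deficient arrays. Lgmn read 11.28 (signal 2481.7) in the same array, below 11.65 to 11.81 in the others. That array also had the highest log2 ratio of 3' over 5' actin control signal, 2.36. The other Apoe-deficient arrays had 0.91 to 1.48 and the wild-type arrays 1.27 to 1.82. For the Gapdh control the ratio was highest in wild-type replicate 1, at 0.58, beside 0.48 in Apoe-deficient replicate 1. Wild-type replicate 1 read lower still for the same Ctsb probe set (11.93) and for Lgmn (11.26). The part of RNA quality in these values was not tested. Apoe read 4.64 (signal 7.2) in Apoe-deficient replicate 3, below 7.09 to 8.18 in the other 5 Apoe-deficient arrays.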

How the results depend on the processing

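The 163 genes called became 668 with array weights, 45 with the control level as a block, 24 without the low-level arrays and 75 to 267 with 1 array left out. Members called stood at 1 with the control level as a block, 1 without the low-level arrays, and 3 to 4 with 1 array left out, and at 3 under the other 11 alternatives, which changed the processing. The Apoe difference kept its sign and its call in all 24 alternatives. Signs turned for members near 0. Ctsk stood at 0.0062 with the deposited values, 0.016 with median centring, 0.079 with array weights and 0.038 with the replicate block, Ctsb at 0.0029 with the mean of its probe sets and 0.0035 with the level block, Ctsa at 0.071 and Ctsd at 0.11 with that block, and at 0.083 and 0.084 without the low-level arrays. Leaving out 1 array gave -0.047 to 0.055 for Ctsb, -0.066 to 0.062 for Ctsd, -0.13 to 0.088 for Ctsk and -0.12 to 0.0037 for Ctsl. The causes were not tested. In the pairing check, same-numbered arrays of the 2 groups correlated at -0.18 to 0.15 in their deviations. Arrays of different numbers were not set beside them, and whether same-numbered arrays shared a processing step was not tested. The replicate block called 186 genes and 3 members, with Ctsc at 1.22, Ctsh at 1.21 and Ctss at 1.19. Array weights called 13 macrophage, 4 fibroblast, 2 neuron and 2 adipocyte markers and 1 matrix gene, and the replicate block 7 macrophage, 3 fibroblast, 2 mast cell, 1 neuron and 1 adipocyte marker and 1 granule protease gene. Signals near the background limit low genes such as Ctsg and Itgam.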
